A study of Homo sapiens with 34 samples.

Results

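Untreated JURKAT cells, a human line from an acute T cell leukemia, were compared with untreated cells of 3 human B-lineage lines: NALM6 and 697, both pre-B lines, and RAMOS, a mature B line. RNA was sequenced in 3 libraries of each line, made with a TruSeq RNA kit from total RNA, so 12 of the 34 libraries of the series entered the comparison. The other libraries came from the same lines after 10 µM etoposide for 4 hours and from the myeloid lines THP1 and U937, untreated and treated. All cells were grown in RPMI with fetal calf serum, and the labels name no engineered change and no drug for the 4 groups compared. Each line is a single culture-adapted tumor, so a difference between JURKAT and the B-lineage lines is a difference between these lines and not an average over T cells and B cells. A gene was kept when JURKAT differed from NALM6, from 697 and from RAMOS in the same direction, each time with an adjusted p under 0.05 in edgeR's quasi-likelihood test. Of 23368 gene symbols counted, 14746 had enough reads to be tested, and 7083 were kept: 4001 higher in JURKAT than in every B-lineage line (27.1% of those tested) and 3082 lower (20.9%). Higher genes were thus 56.5% of those kept, and 69.2% (4997 higher and 2219 lower) when libraries were scaled by their upper quartile. Taken line by line, 84.6% of the tested genes differed from NALM6, 86.7% from 697 and 83.5% from RAMOS, and 2674 genes differed from all 3 lines but not in the same direction.

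T cells and B cells recognise antigen through receptors built on the same plan. The T cell receptor chains signal through CD3 chains and CD247 (the zeta chain), and immunoglobulin signals through CD79A and CD79B. In each, a Src family kinase phosphorylates the chains, another kinase binds them (ZAP70 in T cells, SYK in B cells), and adaptors and a Tec family kinase pass the signal to phospholipase C gamma. The lineages are set by different transcription factors: TCF7, GATA3 and BCL11B, with Notch signalling, in T cell precursors, and EBF1 and PAX5 in B cell precursors. Levels below are in CPM, the count of a gene relative to the total of its library, with totals scaled by the TMM method. They depend on gene length and compare libraries for 1 gene, not genes with each other. A value after ± is the SD over the 3 libraries of a line, or the SE of a log2 fold change where marked so.

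The libraries differed in ways that touch every result. The JURKAT libraries held 9579267, 11606424 and 15791647 counted reads, against 11138035 to 34173213 in NALM6, 16590410 to 23252327 in 697 and 8176143 to 22798558 in RAMOS. The file names place the JURKAT libraries in a different library pool from all 9 B-lineage libraries, so line and pool cannot be told apart for untreated cells. JURKAT libraries also detected more genes: thinned to 8176143 reads each, they held 16377 to 16514 genes with a read, against 13636 to 13724 in NALM6, 13746 to 13891 in 697 and 14114 to 14571 in RAMOS. Etoposide-treated NALM6 and 697 libraries, which shared the JURKAT pool, held 15368 to 15453 and 15822 to 15996 genes at that depth. RAMOS replicate 2 stood apart from the other RAMOS libraries for some genes of the T and pre-B lines. It held 45 reads of CD3D and 135 reads of RAG1, against 0 and 1 reads of CD3D and 5 and 18 reads of RAG1 in the other 2 RAMOS libraries. In sum over the 416 higher genes with no read in NALM6 and 697, it did not stand apart. These genes summed to 374, 379 and 372 CPM in RAMOS replicates 1, 2 and 3. Which genes carry these sums was not tested. Where the fitted change nearest 0 given for a gene below moved by over 1.5 times with a single library, it is also given without that library. Changes against the other lines are given with all libraries only. Without RAMOS replicate 2, 4096 genes were higher and 3023 lower, and 3899 and 3008 of them were among the 4001 and 3082.

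The labelled lineages were checked against marker genes, as sums of unscaled CPM. The 11 T cell markers summed to 2910 to 3081 in JURKAT, against 71.0 to 74.2 in NALM6, 97.6 to 107 in 697 and 136 to 153 in RAMOS. The 9 B cell markers summed to 66.7 to 75.9 in JURKAT, against 1999 to 2075 in NALM6, 1659 to 1709 in 697 and 3477 to 3504 in RAMOS. The 6 pre-B markers gave 234 to 243 in JURKAT, against 3293 to 3310 in NALM6, 3557 to 3591 in 697 and 60.0 to 77.9 in RAMOS. The 16 myeloid markers stayed low in all 4 lines, at 41.3 to 45.0 in JURKAT and 7.54 to 31.9 in the B-lineage lines, against 3681 to 4828 in THP1 and U937.

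The T cell receptor complex was read almost wholly in JURKAT, except for PTCRA. Of its 6 tested genes, 5 were higher in JURKAT than in every B-lineage line, none was lower, and the median of the smallest of each gene's 3 log2 fold changes was 8.95, with genes unread in a line set at their lower bound. Over all 14746 genes tested the same median was 0.0104, and 27.1% of genes were higher and 20.9% lower. In bulk RNA, fewer cells of a type and less RNA per cell cannot be told apart. CD3D, a signalling chain of the receptor, had 529, 532 and 565 CPM in JURKAT, against 0 in every NALM6 and 697 library and 0, 2.09 and 0.0474 CPM in RAMOS. No library of a B-lineage line came near the JURKAT level, and the JURKAT mean was at least 10517-fold higher than NALM6 and at least 9818-fold higher than 697, taking 3 reads over the group as the limit of detection. Against RAMOS the log2 fold change of CD3D was 9.22 ± 0.448 (SE, adjusted p 3.31e-05), and it was 13.66 without RAMOS replicate 2 and 8.48 without RAMOS replicate 3. CD3E, its partner chain, had 524, 523 and 568 CPM in JURKAT, against 0, 0.0307 and 0 in NALM6, 0 in each 697 library and 0.247, 2.37 and 0.474 in RAMOS. Its smallest log2 fold change was 8.76, and 10.33 without RAMOS replicate 2. CD3G, the gamma chain, had 108, 104 and 113 CPM in JURKAT and no read in NALM6 and 697, and RAMOS replicate 2 alone held it in RAMOS, at 0.372 CPM. Its smallest fitted log2 fold change was 9.36, and 13.84 without RAMOS replicate 2 and 8.61 without RAMOS replicate 3. CD247, the zeta chain, was read in every line, at 108, 113 and 115 CPM in JURKAT, 0.557, 0.276 and 0.413 in NALM6, 2.94, 2.68 and 2.64 in 697 and 1.48, 1.58 and 0.758 in RAMOS. Its log2 fold changes were 8.24 ± 0.163, 5.34 ± 0.119 and 6.51 ± 0.138 (SE, adjusted p at most 2.85e-36), so the groups lay far apart even where the gene was not silent. TRAT1, an adaptor that travels with the receptor, had 32.2, 34.6 and 28.3 CPM in JURKAT and no read in NALM6 and 697. Its smallest fitted log2 change was 9.41, and 12.06 without RAMOS replicate 2 and 8.72 without RAMOS replicate 3. PTCRA, the pre-T alpha chain used before the alpha chain is rearranged, had 0.680, 0.562 and 0.573 CPM in JURKAT, against 4.46, 4.69 and 3.92 in NALM6, 0.315, 0.823 and 0.294 in 697 and 1.36, 0.929 and 1.18 in RAMOS, and was not kept.

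The B cell receptor genes ran the other way, though not all of them. Of 6 tested genes, 4 were lower in JURKAT than in every B-lineage line (CD79A, CD79B, VPREB3 and IGJ), none was higher, and the median smallest log2 fold change was -3.46. Over all genes tested 20.9% were lower and 27.1% higher. CD79B, a signalling chain of the B cell receptor, had 1.02, 0.983 and 0.781 CPM in JURKAT, against 309, 331 and 308 in NALM6, 137, 145 and 144 in 697 and 791, 859 and 801 in RAMOS. CD79A, the chain it pairs with, was still read in JURKAT at 50.8, 52.6 and 58.2 CPM, against 174, 176 and 167 in NALM6, 366, 375 and 399 in 697 and 757, 787 and 763 in RAMOS. Its log2 fold changes were -1.67 ± 0.0550, -2.81 ± 0.0550 and -3.83 ± 0.0562 (SE), with adjusted p values of 1.51e-29, 1.94e-38 and 2.41e-43. VPREB3, a protein of the surrogate light chain family that assembles with the pre-B receptor, had 0.510, 0.140 and 0.208 CPM in JURKAT, against 106, 106 and 103 in NALM6, 308, 315 and 329 in 697 and 58.99, 66.6 and 59.4 in RAMOS. CD79A thus kept a level in JURKAT that CD79B and VPREB3 did not. IGJ, the joining chain of secreted immunoglobulin, averaged 0.127 ± 0.0374 CPM in JURKAT, 1.95 in NALM6, 817 in 697 and 2823 in RAMOS. Within the JURKAT pool its log2 fold change against etoposide-treated NALM6 was 0.0431, so the NALM6 difference did not carry over. IGLL1 and VPREB1, which form the surrogate light chain, were lower in JURKAT than in NALM6 and 697 and were not kept. IGLL1 had 57.3, 61.7 and 58.4 CPM in JURKAT, against 654, 786 and 675 in NALM6, 483, 540.4 and 541 in 697 and 0.742, 3.02 and 0.853 in RAMOS.

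**Figure D1:**
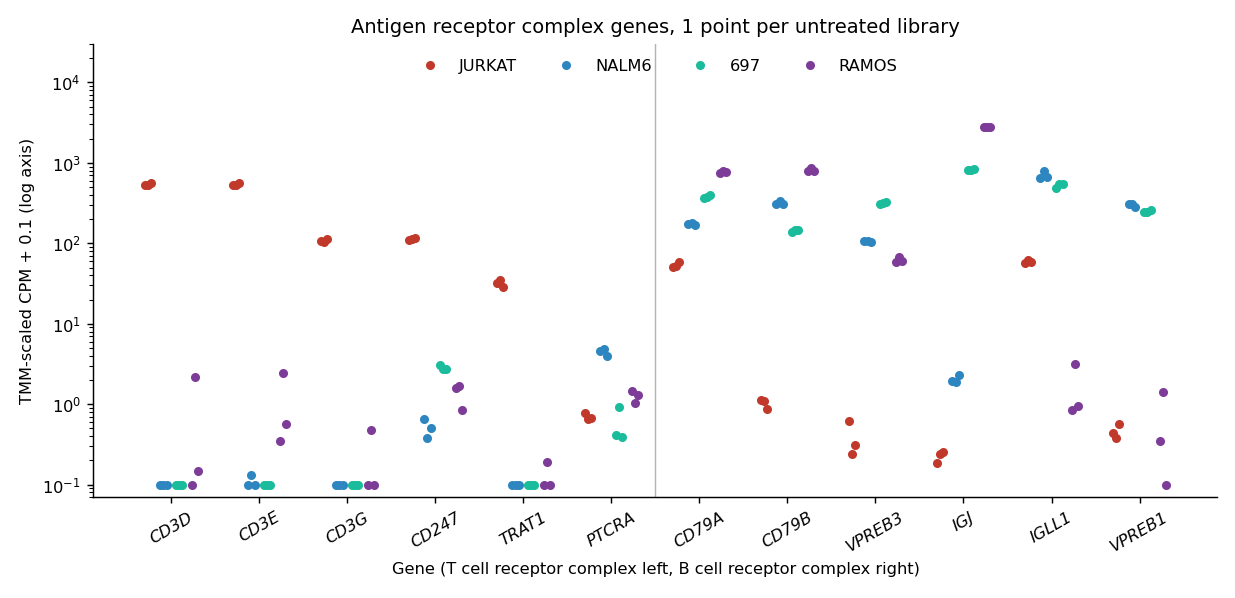
Levels of T cell and B cell receptor genes in each of the 12 untreated libraries, as TMM-scaled CPM plus 0.1 on a log axis, with JURKAT left of NALM6, 697 and RAMOS for each gene. Each point is a library. The CD3 genes and CD247 sit above every B-lineage library in JURKAT, and CD79A, CD79B and VPREB3 below.

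Promoters of 3 receptor genes that differed are shown, to place letters that lymphoid factors are known to read. The 3 were not picked by a rule, and matches in the other receptor genes that differed are not given. They therefore do not show how often such genes carry a match. The stretches are RefSeq sequence of build GRCh38.p14, from 250 bases before the gene's start to 50 after, printed 5′ to 3′ along the gene's strand. CD3D lies at chr11:118342656-118342955 on the minus strand, CD79A at chr19:41877029-41877328 on the plus strand and VPREB3 at chr22:23754376-23754675 on the minus strand. Capitals mark every match of TGTGGT, the core bound by RUNX factors, and of the octamer ATTTGCAT, read by POU2F1 and POU2F2, on either strand. TGTGGT is in CD3D, in CD79A as its reverse complement and at 2 places in VPREB3, and the octamer is in VPREB3.
CD3D: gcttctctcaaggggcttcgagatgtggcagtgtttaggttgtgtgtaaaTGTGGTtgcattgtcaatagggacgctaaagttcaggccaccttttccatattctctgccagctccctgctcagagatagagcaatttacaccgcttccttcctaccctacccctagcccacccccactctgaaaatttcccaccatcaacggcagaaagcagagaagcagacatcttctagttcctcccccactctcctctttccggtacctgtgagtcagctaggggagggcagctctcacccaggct
CD79A: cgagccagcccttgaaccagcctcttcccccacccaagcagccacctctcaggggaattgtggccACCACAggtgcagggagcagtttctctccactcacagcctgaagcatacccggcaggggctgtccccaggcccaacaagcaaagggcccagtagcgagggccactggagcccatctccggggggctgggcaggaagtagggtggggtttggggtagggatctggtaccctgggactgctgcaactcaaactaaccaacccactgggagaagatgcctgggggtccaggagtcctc
VPREB3: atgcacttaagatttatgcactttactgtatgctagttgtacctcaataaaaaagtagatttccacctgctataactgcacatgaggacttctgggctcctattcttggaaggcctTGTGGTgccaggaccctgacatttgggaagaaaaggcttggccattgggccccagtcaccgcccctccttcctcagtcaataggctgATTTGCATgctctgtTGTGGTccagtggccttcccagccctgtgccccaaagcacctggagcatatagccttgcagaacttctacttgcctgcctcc
The CD3D match starts 200 bases before the gene's start, the CD79A match 185 bases before it, the VPREB3 matches of TGTGGT 134 and 32 bases before it and its octamer 47 bases before it. Searching both strands, TGTGGT occurred in 13.1% of the 27305 promoters of the table and ATTTGCAT in 1.80%, and the letters of the motifs do not overlap. A match is a string of letters, not a bound site, and TGTGGT was found in the gene shown that was higher in JURKAT and in both that were lower.

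Downstream of the receptor, the T cell signalling genes were higher in JURKAT as a group. Of 20 tested, 16 were higher than in every B-lineage line and none was lower, against 27.1% and 20.9% of all genes tested. By at least 2-fold 12 were higher, against 16.4% of all genes tested. LCK, the Src family kinase that phosphorylates the CD3 chains, had 575, 549 and 596 CPM in JURKAT, against 15.5, 18.8 and 15.4 in NALM6, 34.8, 37.5 and 36.9 in 697 and 129, 144 and 133 in RAMOS. Its log2 fold changes were 5.08 ± 0.0687, 3.98 ± 0.0625 and 2.08 ± 0.0557 (SE, adjusted p 4.39e-33 against RAMOS). The B-lineage lines thus expressed LCK too, RAMOS most. ZAP70, the kinase that binds the phosphorylated chains, had 205, 239 and 236 CPM in JURKAT, against 56.9, 57.5 and 57.2 in NALM6, 47.1, 49.3 and 54.5 in 697 and 2.84, 5.30 and 3.03 in RAMOS. For ZAP70 the nearest line was NALM6, with a log2 fold change of 1.99 ± 0.0847 (SE, adjusted p 9.52e-16). LAT, the membrane adaptor, had 226, 255 and 240.5 CPM in JURKAT, against 1.67, 1.20 and 0.757 in NALM6, 24.2, 23.2 and 26.7 in 697 and 4.45, 5.34 and 4.93 in RAMOS.

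LCP2 (SLP-76), the adaptor that LAT recruits, separated JURKAT from NALM6 and RAMOS and hardly from 697. It had 78.7, 90.7 and 81.4 CPM in JURKAT, against 0.279, 0.184 and 0.0688 in NALM6, 63.2, 67.2 and 66.2 in 697 and 0.124, 0.139 and 0.189 in RAMOS. The log2 fold change against 697 was 0.35 ± 0.0743 (SE, adjusted p 3.31e-05). THEMIS, which tunes receptor signals during thymic selection, had 94.9, 93.8 and 86.96 CPM in JURKAT, no read in NALM6 and 697, and 0.0929 CPM in RAMOS replicate 2 alone. UBASH3A, a phosphatase-like brake on the receptor, averaged 80.6 ± 3.07 CPM in JURKAT, against 0.0102 in NALM6, 0 in 697 and 0.0310 in RAMOS. The adaptors GRAP2, FYB and SKAP1 had smallest fitted log2 fold changes of 9.41, 8.56 and 7.85. They were 8.69 for GRAP2 without RAMOS replicate 3, and 9.41 for FYB and 7.11 for SKAP1 without RAMOS replicate 2. For genes with 3 or fewer reads in a line these fitted values depend on the prior count and are no bounds. Of the 4 signalling genes not kept, PLCG1, the phospholipase C gamma of T cells, had log2 fold changes of 1.59 against NALM6, -0.22 against 697 and 0.86 against RAMOS.

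B cell receptor signalling genes were lower in JURKAT in 9 of 17 tested and higher in 2, against 20.9% and 27.1% of all genes tested. Their median smallest log2 fold change was -0.95. BLNK, the B cell counterpart of LCP2, had 0.255, 0.0702 and 0.104 CPM in JURKAT, against 251, 244 and 234 in NALM6, 292, 298 and 311 in 697 and 148, 141 and 156 in RAMOS. Its log2 fold changes of -10.76, -11.07 and -10.05 put JURKAT near the limit of detection. BTK, the Tec family kinase of B cells, averaged 1.02 ± 0.224 CPM in JURKAT, against 288 ± 7.61 in NALM6, 23.8 ± 1.01 in 697 and 136 ± 6.11 in RAMOS (SD, n = 3 each). SYK, the counterpart of ZAP70, was lower, with log2 fold changes of -3.80, -1.64 and -3.26, and was still read in JURKAT, at 31.02, 32.4 and 33.2 CPM. LYN, a Src family kinase of B cells, averaged 0.116 CPM in JURKAT, against 143 in NALM6, 97.9 in 697 and 198 in RAMOS. Its smallest log2 fold change was -9.45, and -10.17 without JURKAT replicate 3. The list did not move as a block, since 2 genes were higher in JURKAT. Among them PRKCB, the protein kinase C isoform that B cells use, had 95.1, 94.5 and 95.1 CPM in JURKAT, against 0, 0.123 and 0.0688 in NALM6, 2.05, 2.06 and 1.76 in 697 and 0.618, 0.697 and 0.758 in RAMOS.

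Counterparts with the same place in both pathways were set side by side, as 9 pairs of a T cell gene and a B cell gene. In 6 of the 9 pairs the T cell gene was higher in JURKAT than in every B-lineage line and its B cell partner lower: ZAP70 and SYK, LCK and BLK, LCP2 and BLNK, LAT and LAT2, CD3E and CD79A, and CD247 and CD79B. The other 3 pairs did not. PRKCQ, the protein kinase C isoform of T cells, was higher in JURKAT, averaging 69.1 ± 5.55 CPM against 9.36 in NALM6, 17.99 in 697 and 24.2 in RAMOS, but its partner PRKCB was higher as well. RASGRP1, a Ras activator, averaged 47.996 ± 1.54 CPM in JURKAT, against 5.88 in NALM6, 26.8 in 697 and 7.27 in RAMOS, and its partner RASGRP3 was not kept. PLCG2, the phospholipase C gamma of B cells, averaged 22.6 ± 2.59 CPM in JURKAT, against 89.4 in NALM6, 39.3 in 697 and 528 in RAMOS, and its partner PLCG1 was not kept.

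**Figure D2:**
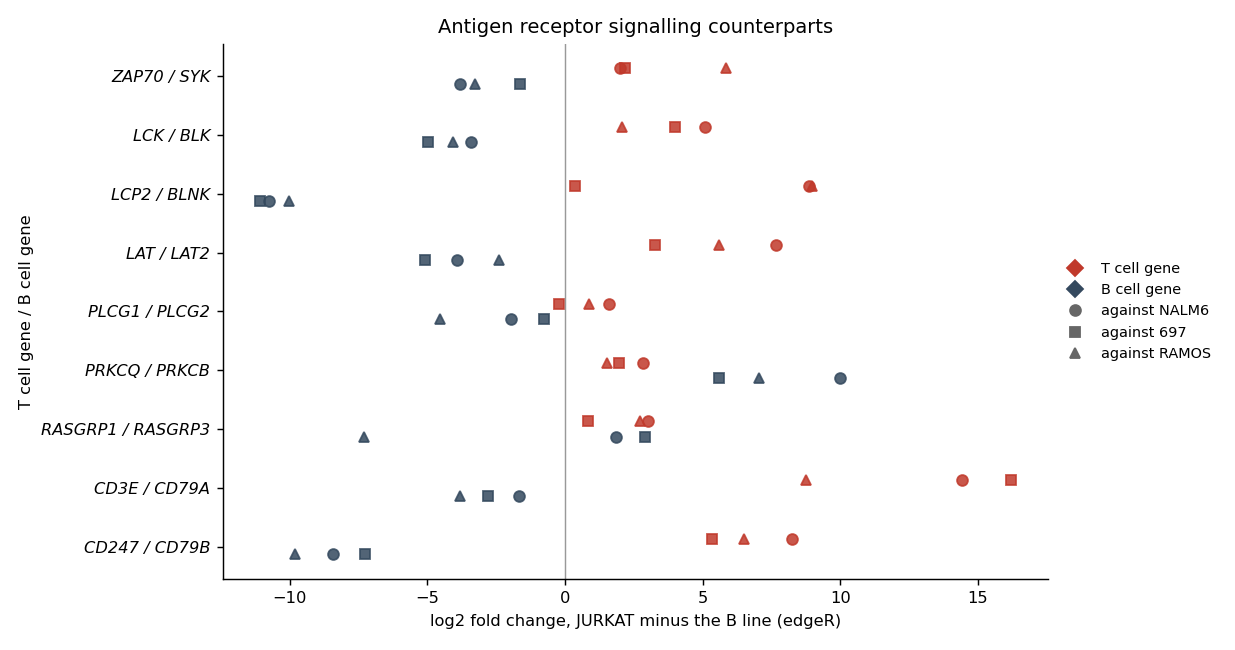
Log2 fold changes, JURKAT minus each B-lineage line, of the 9 pairs of T cell and B cell genes with the same place in receptor signalling. Each point is a gene against 1 line, and values right of 0 mean higher in JURKAT. In 6 pairs all 3 points of the T cell gene lie right of 0 and all 3 of its B cell partner left of it.

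Of 18 tested T cell surface proteins, 17 were higher in JURKAT than in every B-lineage line and none lower. Over all genes tested 27.1% were higher and 20.9% lower. The median smallest log2 fold change of the list was 5.35. Within the JURKAT pool, after etoposide, 15 of 19 tested were higher and none lower, against 32.7% and 28.8% of all genes tested there. CTLA4 and ICOS were too little read to be tested, and CD96 was tested and not kept. CD7, an early T lineage marker, averaged 46.5 ± 4.28 CPM in JURKAT, against 0 in NALM6, 0 in 697 and 0.108 in RAMOS. CD5, a brake on receptor signalling, averaged 21.8 ± 2.21 CPM in JURKAT, against 0 in NALM6, 0 in 697 and 0.140 in RAMOS. CD1B and CD1E, lipid antigen presenting proteins of cortical thymocytes, averaged 58.3 ± 2.10 and 121 ± 7.40 CPM in JURKAT, and at most 0.0777 and 0.170 CPM in any B-lineage line. Without RAMOS replicate 2 the smallest log2 fold changes were 12.62 for CD7, 7.63 for CD5, 10.45 for CD1B and 11.40 for CD1E, against 8.33, 6.89, 9.11 and 9.07 with it. Without RAMOS replicate 3 they were 7.58 for CD7 and 8.31 for CD1E. CD8B, a chain of the CD8 co-receptor, averaged 4.58 ± 0.925 CPM in JURKAT, and had no read in the 9 B-lineage libraries. THY1 averaged 57.8 ± 3.55 CPM in JURKAT, against 0 in NALM6, 0.132 in 697 and 0.172 in RAMOS. CD4, the co-receptor of helper T cells, passed the test at a low level: 2.04, 2.53 and 2.76 CPM in JURKAT, against 0.928, 0.0921 and 0.275 in NALM6, 0.0526, 0 and 0 in 697 and 0.618, 0.604 and 0.568 in RAMOS. The myeloid lines, set beside them for scale, averaged 212 CPM of CD4 in THP1 and 315 CPM in U937. Within the JURKAT pool, after etoposide, the log2 fold change of CD4 nearest 0 was 0.503 and did not pass the test.

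Of 20 tested B cell surface proteins, 10 were lower in JURKAT than in every B-lineage line, none was higher and 10 were not kept, against 20.9% lower and 27.1% higher over all genes tested. The median smallest log2 fold change was -1.17. The number lower dropped to 7 under upper-quartile scaling, and over all genes tested it dropped from 3082 to 2219. This setting was chosen after seeing the data and moved every log2 fold change up, by 0.229 against NALM6, 0.261 against 697 and 0.220 against RAMOS. CD22, an inhibitory receptor of B cells, had 3 reads in JURKAT in all, or 0.170, 0 and 0.0521 CPM, against 109.6, 109 and 108 in NALM6, 283, 276 and 286 in 697 and 529, 559 and 553 in RAMOS. MS4A1, which encodes CD20, had no read in the JURKAT libraries, and averaged 2.20 CPM in NALM6, 5.09 in 697 and 748 in RAMOS, so the range within the B-lineage lines was itself wide. JURKAT was at least 34.6-fold lower than NALM6, at least 75.9-fold lower than 697 and at least 11361-fold lower than RAMOS for this gene. TNFRSF17, a receptor of plasma cells, and FCRLA, an Fc receptor-like protein, had smallest log2 fold changes of -4.77 and -5.71. TNFRSF17 stood at -3.99 without NALM6 replicate 2, and FCRLA at -7.80 without JURKAT replicate 1 and -5.07 without JURKAT replicate 3.

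Among 16 tested transcription factors of the T lineage, 9 were higher in JURKAT than in every B-lineage line, 1 was lower and 6 were not kept. Over all genes tested 27.1% were higher and 20.9% lower. The median smallest log2 fold change of these factors was 0.65. TCF7, which acts from the earliest T cell precursors, had 637, 617 and 689.8 CPM in JURKAT, against 6.13, 6.996 and 6.403 in NALM6, 0.105, 0.274 and 0.538 in 697 and 0.742, 2.28 and 0.237 in RAMOS. GATA3 had 112, 134 and 134 CPM in JURKAT, against 16.9, 16.3 and 15.01 in NALM6, 6.04, 5.15 and 5.73 in 697 and 0, 0.279 and 0 in RAMOS. BCL11B, which holds cells to the T lineage, had 113, 126 and 104 CPM in JURKAT, against 8.36, 7.36 and 7.64 in NALM6, 34.4, 34.4 and 35.3 in 697 and 0, 0.418 and 0 in RAMOS. Both genes were thus read in the pre-B lines, and the log2 fold changes of BCL11B were 3.89 ± 0.119, 1.71 ± 0.0984 and 9.27 ± 0.214 (SE). All 9 RAMOS reads of BCL11B were in RAMOS replicate 2, so the value against RAMOS rests on that library and is not given without it. LEF1, a relative of TCF7, set JURKAT apart only from RAMOS by a large step: it had 805, 814 and 826 CPM in JURKAT, against 549.6, 575 and 567 in NALM6, 779.6, 752 and 765 in 697 and 151, 161 and 154 in RAMOS. Its log2 fold change against 697 was 0.09 ± 0.0431 (SE, adjusted p 0.0489), and the call was lost whichever of the 12 libraries was left out. EOMES, TOX and FOXP3, factors of T cell subsets and thymic selection, averaged 13.98, 77.7 and 2.88 CPM in JURKAT and were higher than in every B-lineage line. ZBTB7B, which directs thymocytes to the helper fate, was the factor that was lower, averaging 2.94 ± 0.413 CPM in JURKAT, against 11.7 ± 0.825 in NALM6, 9.09 ± 0.999 in 697 and 12.8 ± 1.73 in RAMOS (SD, n = 3 each).

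Notch genes did not move together. Of 15 tested, 5 were higher in JURKAT (NOTCH1, NOTCH3, HES1, HES4 and HEYL), 2 were lower (NRARP and RBPJ) and 8 were not kept, against 27.1% higher and 20.9% lower over all genes tested. The median smallest log2 fold change was 0.07. Upper-quartile scaling made 7 higher, and 4997 of all 14746 genes tested. NOTCH1, the receptor, had 265, 297 and 304 CPM in JURKAT, against 12.998, 14.4 and 15.5 in NALM6, 56.6, 72.1 and 63.5 in 697 and 23.9, 30.5 and 27.9 in RAMOS. Within the JURKAT pool, between etoposide-treated cells, its log2 fold change was 0.76 against NALM6 and -1.01 against 697, so the call did not carry over to that pool. HES4, a target gene of the pathway, had 17.8, 22.1 and 19.6 CPM in JURKAT and no read in any of the 9 B-lineage libraries. JURKAT was at least 385-fold higher than NALM6, at least 359-fold higher than 697 and at least 337-fold higher than RAMOS. HES1, another target, averaged 18.4 ± 0.858 CPM in JURKAT, against 0 in NALM6, 0 in 697 and 2.04 in RAMOS. RBPJ, the DNA-binding partner of Notch, averaged 67.6 ± 7.41 CPM in JURKAT, against 164 ± 6.27 in NALM6, 167 ± 5.14 in 697 and 128 ± 4.00 in RAMOS (SD, n = 3 each).

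Transcription factors activated in T cell acute leukemias split in 2 directions: of 10 tested, 7 were higher in JURKAT and 2 lower. The shares over all genes tested were 27.1% and 20.9%. TAL1, a basic helix-loop-helix factor that is silent in normal T cells past the earliest stages, had 292, 299 and 286 CPM in JURKAT and no read in NALM6 and 697, against 0, 0.743 and 0.0474 CPM in RAMOS. The JURKAT mean was at least 5629-fold higher than NALM6 and at least 5255-fold higher than 697. The smallest fitted log2 fold change was 9.74, and 12.77 without RAMOS replicate 2 and 9.06 without RAMOS replicate 3. LMO1, a partner of TAL1 in its complex, averaged 2.62 ± 0.674 CPM in JURKAT and had no read in the 9 B-lineage libraries. LMO2, a related partner, went the other way: it had 1.19, 0.913 and 0.781 CPM in JURKAT, against 19.1, 18.1 and 16.7 in NALM6, 12.6, 15.5 and 13.1 in 697 and 5.56, 3.95 and 4.64 in RAMOS. LYL1, a relative of TAL1, was also lower, with log2 fold changes of -4.39, -3.99 and -4.20. ALDH1A2, an enzyme of retinoic acid synthesis on the same list, averaged 87.5 ± 2.03 CPM in JURKAT. Its smallest log2 fold change was 6.90, and 6.18 without RAMOS replicate 3 and 11.03 without RAMOS replicate 2, which held 36 of the 37 RAMOS reads.

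B lineage transcription factors formed the most uniform group among the B cell lists: 15 of 19 tested were lower in JURKAT, 1 was higher and 3 were not kept. Over all genes tested 20.9% were lower and 27.1% higher. The median smallest log2 fold change of the list was -2.36. PAX5, which commits cells to the B lineage, had 3 reads in the 3 JURKAT libraries together, or 0, 0.140 and 0.0521 CPM, against 437, 540.4 and 523 in NALM6, 348, 373 and 362 in 697 and 166, 179.9 and 184 in RAMOS. The ratio over JURKAT was 7789.8 (95% counting interval 2665 to 37775) in NALM6, 5422 (95% counting interval 1855 to 26293) in 697 and 2706 (95% counting interval 926 to 13123) in RAMOS. EBF1, which acts with PAX5, had 0.8498, 0.562 and 1.67 CPM in JURKAT, against 296, 302 and 318 in NALM6, 246, 249 and 249 in 697 and 22.01, 28.8 and 23.1 in RAMOS. Its log2 fold change against RAMOS was -4.50 ± 0.174 (SE), and -5.16 without JURKAT replicate 3. IRF4, SPIB and POU2AF1, factors of mature B cells and plasma cells, were lower as well, with log2 fold changes nearest 0 of -8.69 for IRF4, -1.74 for SPIB and -3.58 for POU2AF1. TCF4, a basic helix-loop-helix factor, was lower, with log2 fold changes of -7.12, -5.93 and -5.48. TCF3, its relative, was lower by less, with -0.76, -0.49 and -2.04, and within the JURKAT pool it was higher than etoposide-treated NALM6 and 697, by log2 0.45 and 1.13. IKZF1 (Ikaros), which T cells and B cells share, was the factor that was higher, at 499.9, 500.1 and 497 CPM in JURKAT, against 163, 173 and 183 in NALM6, 197, 205 and 201 in 697 and 307, 316 and 338 in RAMOS.

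**Figure D3:**
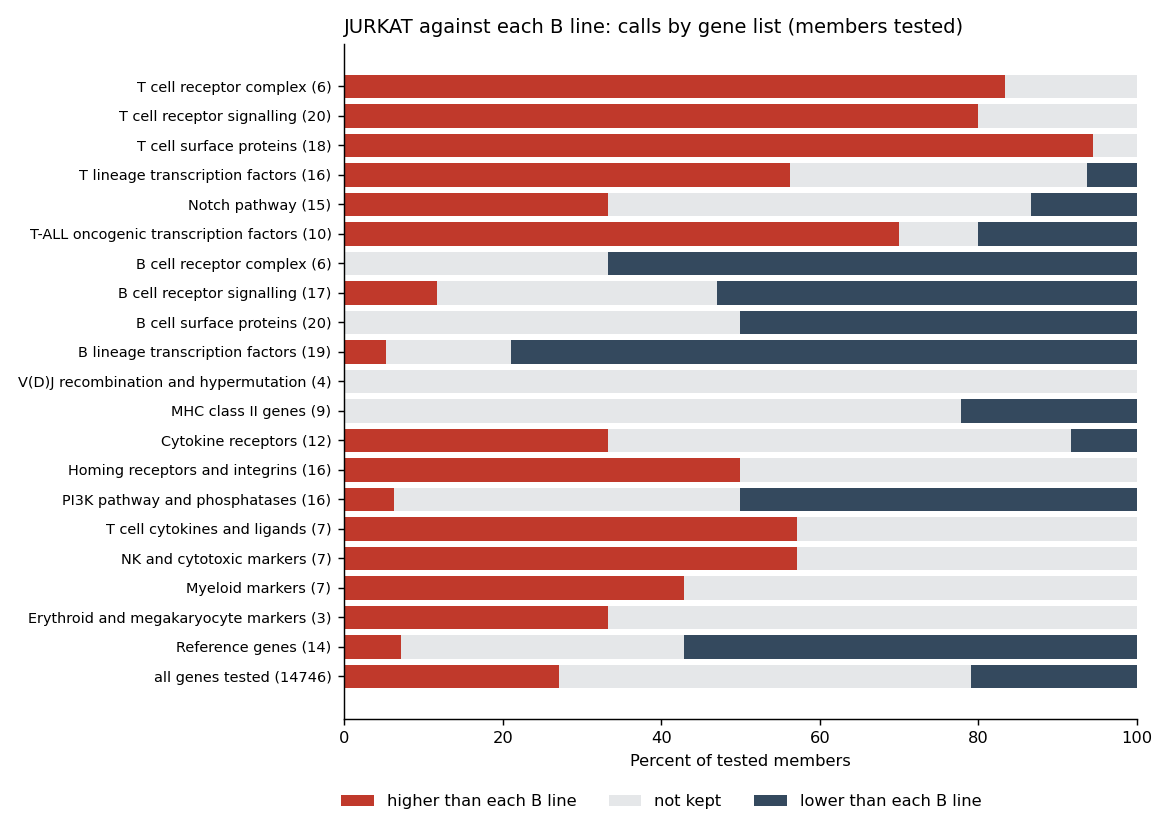
Share of the tested genes of each list that was higher or lower in JURKAT than in all 3 B-lineage lines, in percent, with the share over all 14746 genes tested in the bottom bar. Each bar runs from 0 to 100%, with higher genes from the left, lower genes from the right and genes not kept between. The T cell receptor, signalling and surface lists reach furthest on the higher side, and the B lineage transcription factors on the lower side.

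None of the 4 genes that cut, join or mutate receptor loci was kept, and for RAG1, RAG2 and DNTT the B-lineage lines lay on both sides of JURKAT. RAG1, a subunit of the recombinase, had 40.1, 35.5 and 35.5 CPM in JURKAT, against 625, 639 and 671 in NALM6, 239.6, 241 and 245 in 697 and 0.618, 6.27 and 0.853 in RAMOS. DNTT, which adds bases at the joints, had 81.2, 74.03 and 82.4 CPM in JURKAT, against 1504, 1433 and 1483 in NALM6, 2578, 2596 and 2561 in 697 and 0.371, 3.90 and 0.379 in RAMOS. RAG2 followed the same order, with 18.4, 19.1 and 19.8 CPM in JURKAT, against 205, 199.9 and 207 in NALM6, 151, 147 and 146 in 697 and 1.24, 1.39 and 1.28 in RAMOS. JURKAT therefore sat below both pre-B lines and above RAMOS for all 3 genes. RAMOS replicate 2 supplied 84 of the 95 RAMOS reads of DNTT and 135 of the 158 of RAG1.

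For MHC class II presentation, 2 of 9 tested genes were lower in JURKAT and 7 were not kept, a share near the 20.9% of all genes tested. CD74, the invariant chain, had 1.61, 1.55 and 1.25 CPM in JURKAT, against 1469.7, 1543 and 1443 in NALM6, 1098, 1158 and 1236 in 697 and 1744, 1881 and 1806 in RAMOS. CIITA, the activator of the class II genes, had 2 reads in JURKAT, against means of 94.7 CPM in NALM6, 46.98 in 697 and 96.8 in RAMOS. Of 3 class II chain genes, named after their values were seen, each had its highest level in another B-lineage line. HLA-DRA, the alpha chain of HLA-DR, had no read in JURKAT, against means of 39.5 CPM in NALM6, 3.71 in 697 and 0.0468 in RAMOS. HLA-DRB1, its beta chain, averaged 1.27 CPM in JURKAT, against 0.172 in NALM6, 47.6 in 697 and 0.170 in RAMOS, and HLA-DPB1 averaged 0.113 CPM in JURKAT, against 0.0926, 1.15 and 28.9 in the same lines. The region is carried in several copies in hg19, and how reads were counted there was not tested, so these genes are left as uncertain.

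Of 12 tested cytokine receptors, 4 were higher in JURKAT, 1 was lower and 7 were not kept, against 27.1% higher and 20.9% lower over all genes tested. Under upper-quartile scaling 5 were higher, and so were 4997 of all 14746 genes tested. IL7R, a receptor of early T and B cell precursors, was the gene that was lower: 0.340, 0.492 and 0.937 CPM in JURKAT, against 277, 292 and 295 in NALM6, 379, 371 and 372 in 697 and 2.84, 3.67 and 2.56 in RAMOS. IL2RG, the common gamma chain that pairs with it, was higher, with 284, 281 and 295 CPM in JURKAT and means of 14.5 in NALM6, 43.1 in 697 and 27.3 in RAMOS. Within the JURKAT pool its log2 fold change was 1.22 against NALM6 and 0.07 against 697. TNFRSF1A, a receptor of tumor necrosis factor, had log2 fold changes of 1.77, 0.23 and 1.93, and the value nearest 0 within the pool was -0.178.

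Of 16 tested homing receptors and integrins, 8 were higher in JURKAT, none was lower and 8 were not kept, against the same 27.1% and 20.9%. Under upper-quartile scaling 10 were higher, and so were 4997 of all 14746 genes tested. Those higher include the chemokine receptors CCR4, CCR8, CCR9 and CXCR3 and the integrin chains ITGA6, ITGAE and ITGB2. CCR9, which leads cells to the thymus and gut, averaged 14.6 ± 0.485 CPM in JURKAT, against 0.0205 in NALM6, 0 in 697 and 0.208 in RAMOS. CCR4, a chemokine receptor of T helper subsets, averaged 9.49 ± 0.933 CPM in JURKAT, and its smallest log2 fold change was 8.52, or 10.32 without 697 replicate 1.

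INPP5D (SHIP1) is a lipid phosphatase that opposes PI3K, and JURKAT is known for lacking the protein. Its mRNA was lower in JURKAT than in every B-lineage line but not silent. INPP5D had 51.5, 49.4 and 55.9 CPM in JURKAT, against 164, 181 and 173 in NALM6, 90.9, 103 and 97.5 in 697 and 178, 206 and 194 in RAMOS, with log2 fold changes of -1.72 ± 0.0632, -0.89 ± 0.0641 and -1.88 ± 0.0633 (SE). Within the pool its value nearest 0 was -0.107 and did not pass the test. Of the 16 tested genes of this pathway, 8 were lower, 1 higher and 7 not kept, against 20.9% lower and 27.1% higher over all genes tested. Under upper-quartile scaling 5 were lower and 2 higher, beside 2219 lower and 4997 higher of all 14746 genes tested. The lower genes did not share a role: they include catalytic subunits (PIK3CA, PIK3CD, PIK3CG), AKT2 and the AKT-binding proteins TCL1A and TCL1B beside INPP5D. Within the pool 4 of 15 tested genes of the list were higher and 3 lower, against 32.7% and 28.8% of all genes tested there. There PIK3CD and TCL1A were lower too, PIK3CA and AKT2 did not pass, with log2 fold changes of -0.07 and -0.09 against NALM6 and 0.12 and 0.11 against 697, and PIK3CG did not pass, with -0.81 and 0.36. TCL1A had 0.0850, 0.140 and 0.208 CPM in JURKAT, against 1998, 2105 and 1965 in NALM6, 986, 1034 and 1057 in 697 and 1469.6, 1546 and 1451 in RAMOS, and was the gene with the largest smallest change on the lower side. TCL1B, beside it in the genome, had a smallest log2 fold change of -3.78, or -3.16 without 697 replicate 1.

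Genes of other cell types were read at low levels. The counts in this paragraph stand against 27.1% higher and 20.9% lower over all genes tested. Of 7 tested NK and cytotoxic markers, 4 were higher in JURKAT (GNLY, PRF1, GZMB and NCAM1), and their whole list of 14 summed to 73.3 to 80.5 unscaled CPM in JURKAT, against 17.5 to 21.7 in NALM6, 139 to 143 in 697 and 1.04 to 1.71 in RAMOS. PRF1 (perforin) had a smallest log2 fold change of 4.95, or 4.35 without NALM6 replicate 2, and NCAM1 one of 6.54, or 7.60 without RAMOS replicate 3. Of 7 tested myeloid markers, 3 were higher (CD14, CEBPE and CD68), and CD14 did not hold within the JURKAT pool, where the value nearest 0 was -0.330. Of 3 tested erythroid and megakaryocyte markers, ITGA2B alone was higher. The part of these genes in the other results was not tested. Of 7 tested T cell cytokines and ligands, 4 were higher (IL13, IL32, CD40LG and TNFSF10), and 13 more, IL2 and IFNG among them, were too little read to be tested. IL32 averaged 6.23 ± 0.466 CPM in JURKAT, and its smallest log2 fold change was 5.64, or 9.72 without RAMOS replicate 2 and 4.91 without RAMOS replicate 3. Within the pool its value nearest 0 was 0.289 and did not pass the test. Of 14 genes often used as references, 8 were lower in JURKAT, 1 (ACTB) was higher and 5 were not kept. With upper-quartile scaling 6 were lower and 2 higher, beside 2219 lower and 4997 higher of all 14746 genes tested. GAPDH had log2 fold changes of -0.90, -1.25 and -0.58, and the value of HPRT1 nearest 0 was 0.0963 within the pool, on the other side of 0.

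The direction of a kept gene went with its level, averaged over the 12 libraries. Most of these libraries are B-lineage, so a gene read mainly in JURKAT gets a low average and one read mainly in the B-lineage lines a high one. Level and direction are thus not independent, and how much of the split this makes was not tested. Among the 1602 tested genes whose log2 CPM averaged 0 or less, 54.3% were higher in JURKAT and 0.936% lower. Of 4201 genes above 6, 10.3% were higher and 44.7% lower. By at least 2-fold, 2411 genes (16.4% of those tested) were higher and 852 (5.78%) lower. The JURKAT libraries did not overlap those of any B-lineage line for 3867 of the 4001 higher genes and 2931 of the 3082 lower ones (26.2% and 19.9% of those tested). The 100 most read genes took 12.1% to 12.5% of reads in JURKAT libraries, against 14.2% to 17.6% in B-lineage libraries. The part of the wider detection in JURKAT in these counts was not tested.

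**Figure D4:**
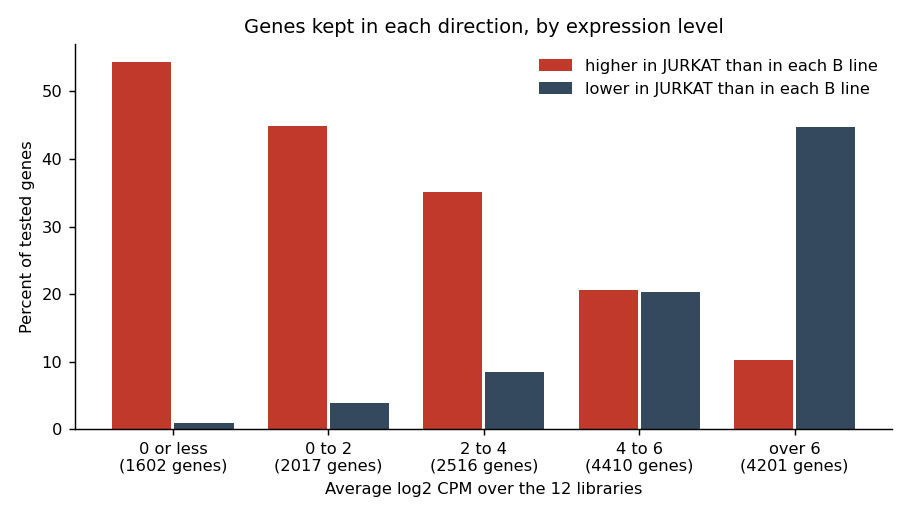
Share of tested genes that was higher or lower in JURKAT than in all 3 B-lineage lines, in percent, by average log2 CPM over the 12 libraries. Bars start at 0. Most of the 12 libraries are B-lineage, so the class of a gene is not independent of its direction. The higher share is 54.3% in the lowest class and 10.3% in the highest, and the lower share is 0.936% and 44.7% in the same classes.

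Outside the lists, the genes with the largest smallest change on the higher side were mostly unread in the B-lineage lines. EPHA1, an ephrin receptor kinase, had 32.8, 35.8 and 34.1 CPM in JURKAT and no read in the 9 B-lineage libraries. JURKAT was at least 662-fold higher than NALM6, at least 618-fold higher than 697 and at least 579.6-fold higher than RAMOS. NAP1L3, a histone chaperone relative, and AADAT, an enzyme of tryptophan breakdown, averaged 26.98 ± 2.84 and 19.9 ± 2.499 CPM in JURKAT and were likewise without a read in all 9. BEX1, GLRB (a glycine receptor subunit), KCNK5 (a potassium channel), ELOVL4 (a fatty acid elongase) and OGDHL (a mitochondrial dehydrogenase) averaged 80.1, 33.7, 56.6, 69.6 and 21.3 CPM in JURKAT. Their smallest fitted log2 fold changes were 10.75, 10.29, 10.25, 10.04 and 9.64, and 13.40, 12.15, 12.90, 13.20 and 11.50 without RAMOS replicate 2. Without RAMOS replicate 3 they were 10.06, 9.67, 9.56, 9.32 and 9.02. ACTG2, a smooth muscle actin, and DUSP8, a phosphatase of MAP kinases, moved with other single libraries: 10.14 and 9.93 with all libraries, 10.87 without RAMOS replicate 3 and 11.72 without 697 replicate 3. In all, 99 genes reached a mean of 2 CPM in JURKAT with no read in the 9 B-lineage libraries. Of these, 87 were protein coding, and 32 were also at 3 or fewer reads in both THP1 and U937. This set was drawn up after the values were seen and is a description without a test.

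On the lower side, several of the leading genes are on none of the lineage lists. CTPS2, an enzyme of CTP synthesis, had no read in JURKAT, against 25.9, 26.9 and 26.2 CPM in NALM6, 44.8, 40.3 and 40.7 in 697 and 36.98, 43.6 and 43.7 in RAMOS. JURKAT was at least 399.9-fold lower than NALM6, at least 634-fold lower than 697 and at least 642-fold lower than RAMOS. DEPDC1, a gene of dividing cells, also had no read in JURKAT, against 34.4, 31.2 and 30.1 CPM in NALM6, 15.3, 16.4 and 13.7 in 697 and 40.2, 34.5 and 38.04 in RAMOS. RIPK2, a kinase of innate immune signalling, and THUMPD2 had 1 read each in JURKAT, and SLC37A4, the glucose-6-phosphate transporter, had 3. RIPK2 averaged 23.4 CPM in NALM6, 32.2 in 697 and 34.4 in RAMOS, and SLC37A4 averaged 79.001, 57.5 and 56.4 CPM in the same lines. Without JURKAT replicate 1, the smallest fitted log2 fold changes stood at -11.71 for RIPK2, -10.60 for SLC37A4, -11.59 for THUMPD2 and -11.53 for CD22, against -9.66, -9.58, -9.53 and -10.53 with it. Without JURKAT replicate 3 they were -9.001 for RIPK2, -8.84 for SLC37A4 and -8.87 for THUMPD2. EVC2, SLMO1 and ACOT2 had no read in JURKAT, and ACOT2 is uncertain because ACOT1 is a near-identical copy of it.

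A wider count, made after the values were seen and given without a test, found 27 genes with 3 or fewer reads over the JURKAT libraries and a mean of at least 2 CPM in each B-lineage line. Of these, 11 also reached 2 CPM in both THP1 and U937: CHCHD5, CSF2RB, CTPS2, DEPDC1, GPD2, PAX5, RIPK2, SLC2A5, SLC37A4, SLMO1 and THUMPD2. Of these 11, PAX5 is the 1 gene on the B lineage lists. CSF2RB, the shared beta chain of the IL-3 and GM-CSF receptors, averaged 173 CPM in NALM6, 51.5 in 697, 293 in RAMOS, 51.2 in THP1 and 49.3 in U937. GPD2, the mitochondrial glycerol-3-phosphate dehydrogenase, averaged 34.3, 113, 54.7, 97.3 and 89.8 CPM in the same 5 lines, and had 2 reads in JURKAT controls and 0 in etoposide-treated JURKAT. SLC2A5, the fructose transporter, averaged 43.6 CPM in NALM6, 3.16 in 697 and 263 in RAMOS, with 0 reads in the 6 JURKAT libraries. Every line had such genes: the same count gave 26 for NALM6, 30 for 697, 35 for RAMOS, 7 for THP1 and 77 for U937.

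**Figure D5:**
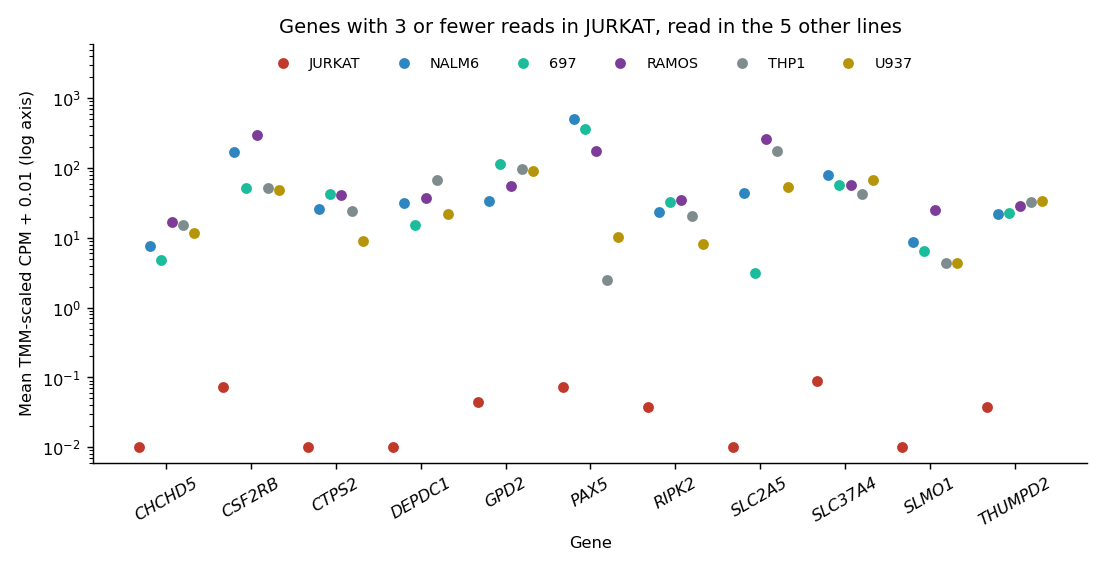
Mean TMM-scaled CPM plus 0.01, on a log axis, of the 11 genes with 3 or fewer reads over the JURKAT controls and at least 2 CPM in each of the other 5 untreated lines. Each point is the mean of a line. JURKAT lies under 0.1 for each gene, and every other line lies above 2.

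The kept genes were also set against the myeloid lines, which the rule did not use. Of the 4001 higher genes, 2587 were also higher in JURKAT than in both THP1 and U937, 294 were lower than in both and 1120 were neither. Over the 16470 genes of that fit, 30.6% were higher and 26.9% lower in JURKAT than in both. Of the 3082 lower genes, 1831 were also lower than in both myeloid lines, 228 were higher and 1023 were neither. The same 3 JURKAT libraries entered both comparisons, so the counts share their error.

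Within 1 pool, JURKAT could be set only against NALM6 and 697, and only after etoposide. Of 15182 genes tested there, 32.7% were higher in JURKAT than in both lines and 28.8% lower. Of the 4001 genes higher in untreated JURKAT, 2801 were higher there too, 197 were lower, 971 did not pass and 32 were not tested. Of the 3082 lower genes, 2023 were lower there too, 209 were higher, 836 did not pass and 14 were not tested. Among genes that differed by at least 2-fold, 1809 of 2411 were higher in both settings and 736 of 852 lower in both, while 85 and 4 turned round. Of the 6 T cell receptor complex genes 5 were higher within the pool, and of the 6 B cell receptor genes 5 were lower, with IGJ the exception. CD3E averaged 528 CPM in etoposide-treated JURKAT, against 0.360 in etoposide-treated NALM6 and 0.428 in 697, and CD79B averaged 0.886 CPM, against 195 and 51.4. Of the 20 T cell signalling genes, 17 were higher in JURKAT and 2 lower within the pool, and of the 19 B lineage transcription factors 14 were lower and 2 higher. Drug and pool change together in this check, and their parts cannot be told apart.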

How the data were processed

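RNA-seq read counts per gene symbol of 34 libraries were deposited by the authors as raw counts, and per the submitters' processing notes HISAT, HTSeq, DESeq2 and the hg19 build were used. Neither their roles and versions nor the strand setting is stated, so overlapping and antisense genes are uncertain. The 12 untreated libraries of JURKAT, NALM6, 697 and RAMOS entered 1 fit in R 4.3.3 with edgeR 4.0.16: genes passing filterByExpr (minimum count 10), TMM scaling, robust quasi-likelihood F tests of JURKAT minus each line, and Benjamini-Hochberg adjustment over all 14746 genes. Myeloid comparisons came from a fit of all untreated libraries, and the within-pool check from etoposide-treated JURKAT, NALM6 and 697. A gene with no read in a line was set at 3 reads over its libraries for a lower bound, and ratios with 1 to 3 reads carry 95% exact intervals. Intervals and bounds cover counting error only. Whether replicates are separate cultures is not stated, so p values measure the spread between these libraries, which may be technical.

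Genes were named by rule: in each direction the 14 kept genes with the largest smallest change, a log2 CPM averaging 2 or more and no overlap of libraries, up to 6 in each direction from each list, both genes of each counterpart pair, and INPP5D, CD4, NOTCH1, TAL1, LMO2, RAG1, DNTT, GATA3, BCL11B, PAX5, EBF1, IL7R and LEF1. Some genes that the rule names are not reported here. A few more members are named to complete a list, chosen after their values were seen. The members and lists were chosen with earlier results of these data known. Alternatives were RLE and upper-quartile scaling, no filter, DESeq2 1.42.0, a replicate block, other sets of libraries and the rule without 1 line. The scripts were tested on simulated data. Promoters were matched by symbol to RefSeq (GRCh38.p14): 10044 of the tested genes (68.1%) had one, so no motif share over the kept genes is given.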

Additional observations from a re-analysis of the deposited data

Results flagged for a closer look

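For 4 genes of the pre-B stage, the JURKAT difference from RAMOS and that from the pre-B lines had opposite signs. The difference between them was tested as RAMOS against the mean of NALM6 and 697 in edgeR's quasi-likelihood fit, and passed. The genes were picked by their opposite calls in the same libraries, so a pass was close to fixed in advance and adds no support. JURKAT drops out of this contrast, and the RAMOS controls were in another library pool than those of NALM6 and 697. JURKAT was below both pre-B lines and above RAMOS for each. The gap between the 2 differences was 10.03 on the log2 scale for DNTT (adjusted p 1.38e-09), 8.43 for IGLL1 (adjusted p 3.86e-10), 7.03 for RAG2 (adjusted p 3.18e-45) and 6.998 for RAG1 (adjusted p 4.28e-08). RAMOS replicate 2 held 84 reads of DNTT, 65 of IGLL1 and 135 of RAG1, against 3 and 8, 6 and 18, and 5 and 18 in RAMOS replicates 1 and 3. Without RAMOS replicate 2 the gaps were 12.31 for DNTT, 9.52 for IGLL1, 7.09 for RAG2 and 8.96 for RAG1 (adjusted p at most 4.77e-39). Without RAMOS replicate 3 they were 9.40 for DNTT, 7.998 for IGLL1, 7.001 for RAG2 and 6.43 for RAG1, and without RAMOS replicate 1 they were 9.83, 8.30, 7.03 and 6.80 in the same order (adjusted p at most 4.81e-07). This check was added after seeing the data. RAG2, at 1.24, 1.39 and 1.28 CPM, was level across the RAMOS libraries.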

How the results depend on the processing

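The counts of genes higher and lower in JURKAT than in each B-lineage line, 4001 and 3082, became 4193 and 2902 with RLE scaling, 4888 and 2921 with no filter on low counts, 4012 and 2887 with DESeq2, and 4541 and 3067 with all 34 libraries in the fit. Leaving out each library in turn gave 3927 to 4145 higher and 2864 to 3203 lower. With at least 2-fold in each contrast they were 2411 and 852. Under upper-quartile scaling, chosen after seeing the data, they were 4997 and 2219, or 69.2% higher against 56.5%. The rule without NALM6 gave 4566 and 3570, without 697 4709 and 3674, and without RAMOS 5613 and 4381. No kept gene changed direction under another scaling, filter, block or left-out library. With the replicate number as a block the counts were 3960 and 3071 (4852 and 4287 within the pool). The numbers were not treated as pairing the libraries: same-number correlations ran from -0.0468 to 0.0864, and 5 of the 12 libraries correlated best with their own number.

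Of 130 named genes 126 were kept, and 121 of these were kept whichever library was left out. Calls of TCL1B, LEF1, CD14, TNFRSF1A and PIK3R5 were lost under some setting, and those of CD4, IL2RG, IL32, INPP5D, ITGA2B, NOTCH1 and PIK3CA within the pool. Within 1 library pool, after etoposide, 5 of the 130 named genes had a log2 fold change nearest 0 of the other sign: IGJ 0.0431, TNFRSF1A -0.178, PIK3CG 0.362, CD14 -0.330 and HPRT1 0.0963. The 130 leave out members named to complete a list. Among those, TCF3 also turned round within the pool, and the call of AKT2 was lost there. The cause was not tested. At 8176143 to 34173213 reads a library, genes unread in a line are known only to lie under 3 reads over its libraries.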

Other observations

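Genes that were at least 2-fold lower in JURKAT than in every B-lineage line made up different shares of the chromosomes, by RefSeq gene location: 12.3% of the tested genes of chromosome 18, 11.3% of chromosome 4, 10.9% of chromosome 9 and 10.8% of chromosome 22, against 5.78% of all genes tested. Genes at least 2-fold higher made up 21.5% of chromosome 17 and 20.3% of chromosome 21, against 16.4% over all. No test was made, and genes of a chromosome are not independent.

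Low reads of some JURKAT genes, CD3E and TAL1 among them, also occurred in the other lines of its pool. This did not hold for every such gene. BEX1 and AADAT averaged 87.3 and 25.2 CPM in etoposide-treated JURKAT and had no read in etoposide-treated NALM6 and 697. The untreated libraries set beside them here differ in drug as well as pool, and the cause was not tested. CD3E averaged 0.360 CPM in etoposide-treated NALM6 and 0.428 CPM in etoposide-treated 697, against 0.0102 and 0 CPM in the untreated libraries of those lines, and TAL1 averaged 0.0703 and 0.121 CPM, against 0 in both.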
